A study of Mus musculus with 66 samples.

Results

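The Z-disc and the scaffold of the sarcomere were followed through 10 genes, Ttn, Neb, Actn2, Actn3, Ldb3, Myoz2, Tcap, Myom1, Mybph and Des, which were found by name among the 22489 genes of the mRNA-Seq table. All 10 were present, each as a single row. The cells were C2C12, a mouse myoblast line that fuses into myotubes when serum is withdrawn. The study made 9 lines of it that carry histone H3 with GFP at the N-terminus under a doxycycline-inducible promoter, and kept C2C12 cells without a transgene (WT). The transgenes were H3.1, H3.2 and H3t, which belong to the H3.1/H3.2 type by sequence, and H3.3 with 5 of its newly found relatives (H3mm7, H3mm11, H3mm12, H3mm13, H3mm16), which belong to the H3.3 type. Lines were obtained by transfer of the vector into the genome with a transposase, selection with G418 under doxycycline, and sorting of GFP-positive cells. Each line gave 1 library of growing cells, kept in medium with 20% fetal bovine serum, and 1 library of cells harvested 48 h after a change to 2% horse serum. Each H3 variant was represented by 1 line, so the variant and the line that carries it cannot be told apart. The columns named H3mmT were taken as the H3t line, since no other line name matched them.

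A sarcomere is the repeating unit of a myofibril and runs from Z-disc to Z-disc. At the Z-disc, alpha-actinin cross-links the ends of thin filaments, and proteins such as LDB3, myozenin and telethonin bind alpha-actinin or the end of titin. Titin spans from the Z-disc to the M-band, where myomesin holds the thick filaments, nebulin runs along the thin filament, and desmin, an intermediate filament protein, ties neighbouring Z-discs together. In skeletal muscle, these genes are switched on or raised as myoblasts leave the cell cycle and fuse.

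The lines were muscle cells by their markers. Growing cells had 1.61 to 110 FPKM of Myod1, 25.3 to 64.9 FPKM of Myf5 and a median of 55.4 FPKM of Cdh15, and the differentiation markers Myog, Ckm and Myh3 rose in 10 of 10 lines, by 6.34, 7.51 and 7.26 on the log2(FPKM + 1) scale. FPKM is the number of fragments scaled by the length of the transcript and by the total of mapped fragments. The number of reads behind the values is unknown, so no counting error can be given, and p-values measure the spread between lines. The 20 libraries had 13858 to 16865 genes above 0 FPKM. The WT libraries stood apart. With both states pooled, 173 genes had both WT libraries at least 8-fold below every GFP-H3 library, and 24 had both at least 8-fold above. Each library on the higher side had to reach 1 FPKM. None of the scaffold genes or of the genes listed with them was among these. For the 7 scaffold genes that stayed under 1 FPKM in every growing library, that floor fixed this outcome. No 2 libraries held identical values.

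Short stretches upstream of the transcription start are shown because most of the 10 genes rose in all lines. Windows from 250 bases before to 50 bases after the start were taken from RefSeq (GRCm38.p6), which gave 7 of the 10 genes. Neb, Actn3 and Tcap had no window in the table. Both strands were searched for CAGCTG, the E-box bound by MyoD and myogenin in muscle genes, for the MEF2 motif and for the CArG box of serum response factor, which are motifs long known from muscle promoters, and for further E-boxes. These were CACGTG, the palindrome bound by many factors of that class, and CAGGTG, which reads as its complement CACCTG when taken from the opposite strand. All E-boxes share the form CANNTG. The sequences below are 30 bases each on the strand of the gene, with matches to the MEF2 motif, the CArG box, CAGCTG and CACGTG in capitals, and their mm9 positions come from an exact match to that genome.
Des: agagggatcctgCAGCTGtcaggggagggg
Mybph: gacctgaccccaCAGCTGggaatggtttgc
Myoz2: tgCTATATATAGccagttgatgtCAGCTGg
Ttn: ttctgaaaggCTAAATTTAGcactgccaat
Ldb3: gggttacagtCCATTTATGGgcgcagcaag
Myom1: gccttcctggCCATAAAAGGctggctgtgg
Actn2: tggggccggcagCACGTGactctcagcggg

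The Des stretch is chr1:75356819-75356848 (plus strand), the Mybph stretch chr1:136089934-136089963 (plus strand) and the Myoz2 stretch chr3:122737911-122737940 (minus strand). The CAGCTG of Des began at position -36 and that of Mybph at position -79 from the RefSeq start, and the MEF2 motif of Myoz2 at position -33, just upstream of its CAGCTG. The Ttn stretch is chr2:76820751-76820780 (minus strand) and holds a MEF2 motif at -166. Ldb3 (chr14:35401883-35401912, minus strand) and Myom1 (chr17:71368788-71368817, plus strand) held a CArG box at -35 and -99, and Actn2 (chr13:12433030-12433059, minus strand) held CACGTG at -48. CAGCTG was found in 3 of the 7 genes and in 16.3% of all 32851 promoter windows, MEF2 in 2 of 7 and in 0.557%, and CArG in 2 of 7 and in 1.63%. CACGTG was found in 1 of 7 and in 7.15% of windows, the non-palindromic CAGGTG in 1 of 7 (Ttn, outside the stretch shown) and in 20.2%, and CANNTG in 6 of 7 and in 72.3%. A match is a description of these letters, since no binding was measured here.

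Titin and nebulin are the giant filaments that span the sarcomere and the thin filament. Ttn (chr2:76542037-76820604, minus strand, mm9), whose longest annotated transcript has 106824 bases in 347 exons, was at 0.0162, 0.128 and 0.684 FPKM (lowest, median and highest of 10 libraries) in growing cells and at 2.89, 5.38 and 17.1 FPKM in differentiated cells. The differentiated values fell lowest in the H3mm7 line and highest in the H3mm12 line, and the lowest of them lay above the highest growing library. Ttn rose by 2.73 ± 0.26 (SE, 10 lines in each state) on the log2(FPKM + 1) scale (limma, Benjamini-Hochberg adjusted p = 1.01e-08). Neb (chr2:51992167-52194318, minus strand), with 157 exons in its longest transcript, had 0.0177, 0.0666 and 0.139 FPKM in growing cells and 2.21, 12.1 and 45.9 FPKM in differentiated cells, again lowest in H3mm7 and highest in H3mm12. The states did not overlap, and Neb rose by 3.53 ± 0.36 (adjusted p = 3.62e-08). The labels of these libraries name an oligo dT primer for reverse transcription, and whether this moved the FPKM of such long transcripts was not tested. Genes were tested where their mean over the 20 libraries reached 1 FPKM. Ttn, Neb, Actn2, Myoz2, Tcap, Myom1 and Mybph had means under 1 FPKM in growing cells. They passed through their differentiated libraries alone and had to differ to be tested, which limits their p-values and separate states here and below.

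The muscle alpha-actinins cross-link thin filaments in the Z-disc. Actn3 (chr19:4861223-4877909, minus strand), the alpha-actinin of fast fibres, was already at 1.15, 4.24 and 16.8 FPKM in growing cells, highest in H3mm7, and reached 27.6, 89.0 and 262 FPKM in differentiated cells, lowest in H3mm11 and highest in H3mm12. Actn3 rose by 3.99 ± 0.39 (adjusted p = 1.97e-08), and its mean FPKM rose from 5.63 ± 4.66 to 107 ± 72.9 (SD, n = 10), which is 19.0-fold. Actn2 (chr13:12361693-12433027, minus strand), the alpha-actinin found in all skeletal fibres and in heart, was listed at 0 in 2 growing libraries, and the growing cells had a median of 0.0238 and a highest value of 0.127 FPKM. Differentiated cells had 0.192 (H3t), 1.08 and 17.6 FPKM (WT) of Actn2, so that WT lay 5.20-fold above the highest GFP-H3 line and 23.6-fold above their median. The states did not overlap for either alpha-actinin. Actn2 rose by 1.18 ± 0.36 (adjusted p = 0.00782), but by 0.84 without the WT libraries (adjusted p = 0.00163), which is under the difference of 1 asked for here.

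LDB3, myozenin-2 and telethonin sit at the Z-disc around alpha-actinin and titin. Ldb3 (chr14:35339885-35401867, minus strand), which codes for a PDZ-LIM protein that binds alpha-actinin, was at 6.85, 10.1 and 15.1 FPKM in growing cells and at 18.1, 44.1 and 112 FPKM in differentiated cells, lowest in H3mm7 and highest in H3mm12. It rose by 1.95 ± 0.27 (adjusted p = 3.23e-06), a 4.75-fold rise of the mean from 10.98 ± 2.57 to 52.1 ± 31.2 FPKM (SD, n = 10). Myoz2 (chr3:122709124-122737908, minus strand), whose product binds alpha-actinin and the phosphatase calcineurin, was listed at 0 in 2 growing libraries, reached at most 0.174 FPKM in growing cells, and was at 16.4 (H3.1), 48.2 and 111 FPKM (H3mm12) in differentiated cells. It rose by 5.35 ± 0.30 (adjusted p = 3.38e-12), and the states did not overlap for Ldb3 or Myoz2.

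Tcap (chr11:98245125-98246267, plus strand), which codes for telethonin, the cap of the titin end, was the least uniform of the 10. It was listed at 0 in 3 growing libraries and had a median of 0.0532 and a highest value of 0.316 FPKM (H3mm7) there. In differentiated cells, Tcap was at 9.68 FPKM in WT, 8.83 in H3mm12, 7.63 in H3mm16, 2.88 in H3mm13, 1.49 in H3mm11, 0.818 in H3.3, 0.380 in H3.1, 0.239 in H3mm7, 0.152 in H3t and 0.0994 in H3.2. The states overlapped, and H3mm7 was the only line of the 10 in which Tcap was lower in differentiated cells (-0.09 on the log2 scale). Tcap rose by 1.40 ± 0.40 over the 10 lines (adjusted p = 0.0049).

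At the M-band and the thick filament, Myom1 (chr17:71368861-71476196, plus strand), which codes for myomesin-1, had 0.0333, 0.0903 and 0.182 FPKM in growing cells and 2.17 (H3mm7), 9.61 and 47.1 FPKM (WT) in differentiated cells. It rose by 3.48 ± 0.40 (adjusted p = 1.98e-07). Mybph (chr1:136090025-136097808, plus strand), which codes for myosin binding protein H, a thick filament protein, had the largest rise of the 10. Its values were 0.0553, 0.229 and 0.820 FPKM in growing cells and 108 (H3t), 276 and 828 FPKM (WT) in differentiated cells, a difference of 7.80 ± 0.29 (adjusted p = 1.33e-13). For both genes, each differentiated library lay above every growing library.

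Des (chr1:75356904-75365154, plus strand), which codes for desmin, was the most abundant of the 10 in both states. It was at 165 (H3t), 272 and 497 FPKM (H3mm7) in growing cells and at 378 (H3mm11), 712 and 1273 FPKM (H3mm12) in differentiated cells. The states overlapped, although Des was higher after differentiation in 10 of 10 lines, by 0.19 (H3mm7) to 1.96 (H3mm12) on the log2 scale. The mean rose 2.69-fold, from 283 ± 90.9 to 761 ± 280 FPKM (SD, n = 10), a difference of 1.40 ± 0.21 (adjusted p = 8.95e-06). In the mm9 annotation, exons of Mybph overlap Adora1, exons of Des overlap Gm15179 and exons of Ttn overlap Gm13938, each on the other strand, and exons of Myom1 overlap Gm16724 on the same strand. Whether the counting used strand is not given in the sources used here, so reads of these genes and their partners may not have been told apart.

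**Figure D1:**
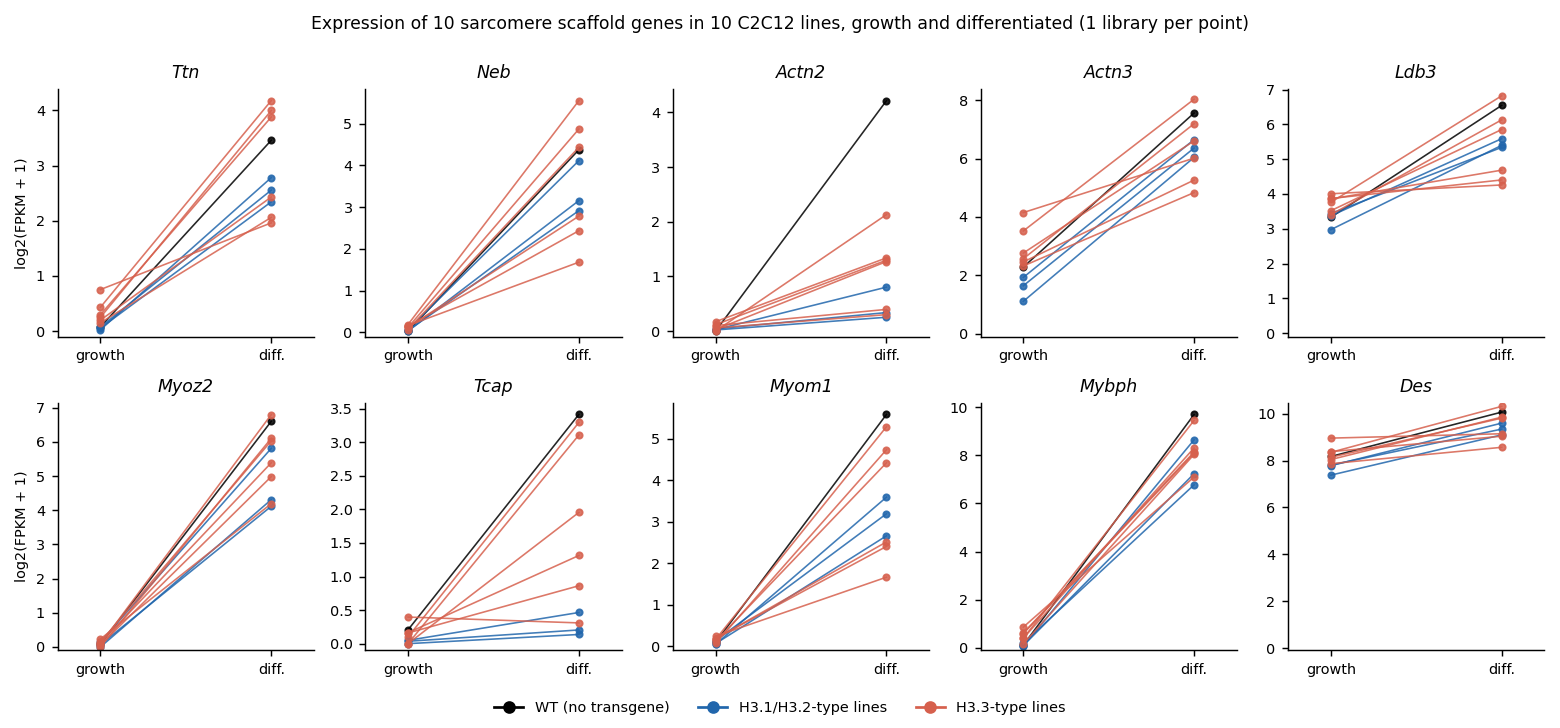
Level of each of the 10 scaffold genes as log2(FPKM + 1) in growing and differentiated cells (diff.), 1 point per library and a line joining both libraries of a cell line, coloured by the type of its H3 transgene. The states overlap for Tcap and Des and are separate for the other 8 genes.

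All 10 scaffold genes were called higher in differentiated cells, which took an adjusted p below 0.05 together with a rise of 1 or more in log2(FPKM + 1), where 8.87% of the 10954 genes tested were called higher and 8.41% lower, and where 62.2% had an unadjusted p below 0.05. Of the 10, 7 had a mean under 1 FPKM in growing cells and passed the filter on low values through their differentiated libraries, so they had to differ to be tested, and Des, Ldb3 and Actn3 did not depend on it. The median difference was 3.11 for the 10 genes and 0.04 for all genes tested. Mybph ranked 6th, Myoz2 25th and Actn3 47th among all rises, Neb 67th, Myom1 69th, Ttn 130th and Ldb3 282nd, and Tcap, Des and Actn2 546th, 547th and 734th. Adding 1 FPKM before taking logs understates the rise of genes that were near 0 in growing cells. With 0.1 FPKM added, Mybph still had the largest rise of the 10 (9.74), but Actn2 (3.04) and Tcap (3.06) rose more than Ldb3 (2.03) and Des (1.40). The lowest differentiated library lay above the highest growing library for 8 of the 10 genes, and for 8.85% of all genes tested. In RNA from a whole culture, fewer differentiated cells and less RNA per cell cannot be told apart.

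**Figure D2:**
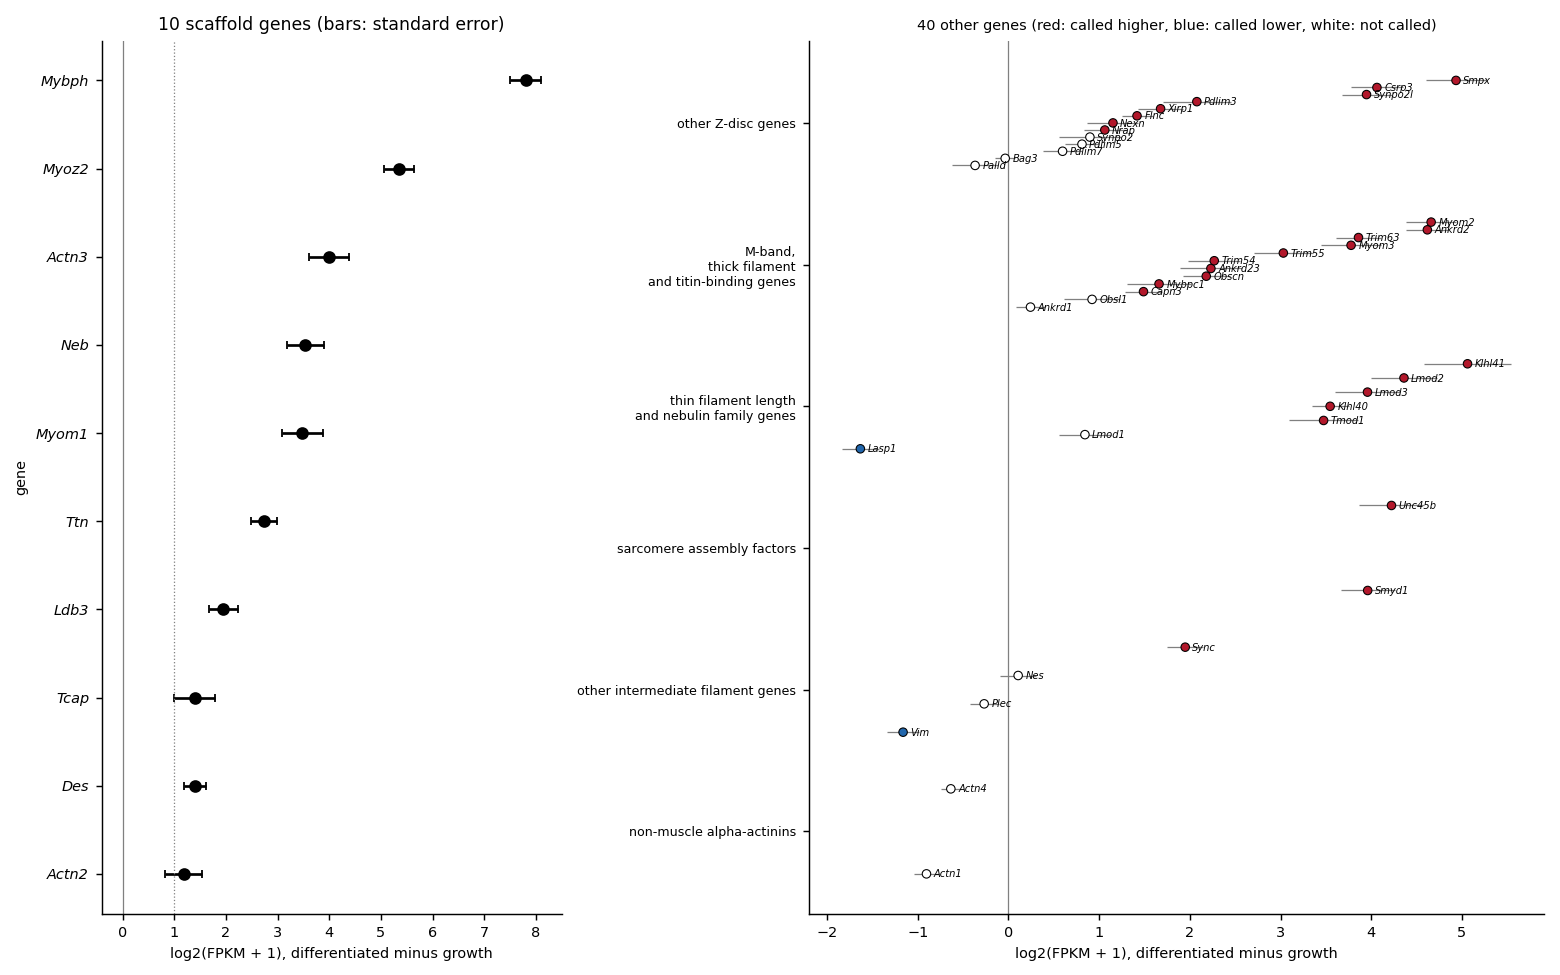
Differences between differentiated and growing cells in log2(FPKM + 1), with bars of 1 standard error, for the 10 scaffold genes (left, with a dotted line at 1) and 40 other genes of the sarcomere and its filaments (right, by list, red where called higher, blue where called lower and white where not called). On this scale, Mybph had the largest difference of the 10 (7.80) and Actn2 the smallest (1.18, but 3.04 against 1.40 for Des with 0.1 FPKM added instead of 1), and Lasp1 (-1.63) and Vim (-1.16) were the genes called lower.

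FPKM is scaled by length, so levels of genes could be set in order. Whether the oligo dT primer moved the places of the long transcripts Ttn and Neb in it was not tested. In differentiated cells, the order of mean log2(FPKM + 1) was Des, Mybph, Actn3, Ldb3, Myoz2, Neb, Myom1, Ttn, Tcap and Actn2. Of the 9 pairs of neighbours, 6 differed beyond their spread over the 10 lines (exact two-sided sign-flip permutation test, Benjamini-Hochberg adjusted p = 0.00352 for 5 pairs and 0.00879 for Myom1 over Ttn). Ldb3 and Myoz2 (difference 0.06 ± 0.71 SD, n = 10, exact permutation test, adjusted p = 0.872), Neb and Myom1 (0.02 ± 0.47, adjusted p = 0.935) and Tcap and Actn2 (0.27 ± 0.86, adjusted p = 0.447) did not differ beyond that spread. In growing cells, Des stood above Ldb3 (exact permutation test, adjusted p = 0.00879), Ldb3 above Actn3 (0.0117) and Actn3 above Mybph (0.00879). The neighbours from Mybph down through Ttn, Myom1, Tcap, Neb, Myoz2 and Actn2 did not pass the test, with adjusted p between 0.286 and 0.803 in the exact permutation tests. The smallest raw p this design allows is 0.00195. Mybph thus stood among genes near 0 in growing cells and next to Des in differentiated cells, where it made up 13.4% to 34.7% of the summed FPKM of the 10 genes. Des made up 92.4% to 95.7% of that sum in growing cells and 45.1% to 72.0% in differentiated cells.

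After differentiation, the 10 lines were ranked from highest to lowest for each gene. H3mm12 was highest in 6 of the 10 genes and highest among the GFP-H3 lines in all 10, with a mean rank of 1.4 among 10 lines. WT was highest in the other 4 (Actn2, Tcap, Myom1 and Mybph), with a mean rank of 2. H3mm16 and H3mm13 followed, with mean ranks of 3.6 and 3.7, and then H3.2 (5.6), H3.1 (6.7), H3.3 (7), H3t (8), H3mm7 (8.4) and H3mm11 (8.6). The smallest rise of a gene over growing cells fell in H3mm7 for 7 of the 10 genes. For all of these but Neb, H3mm7 was also the highest growing library, so these rises started from a high level. In differentiated cells, H3mm7 was lowest for Ttn, Neb, Ldb3 and Myom1, but not for Actn3, Tcap or Des. With 1 library per line and state, differences between single lines have no replicate check.

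**Figure D3:**
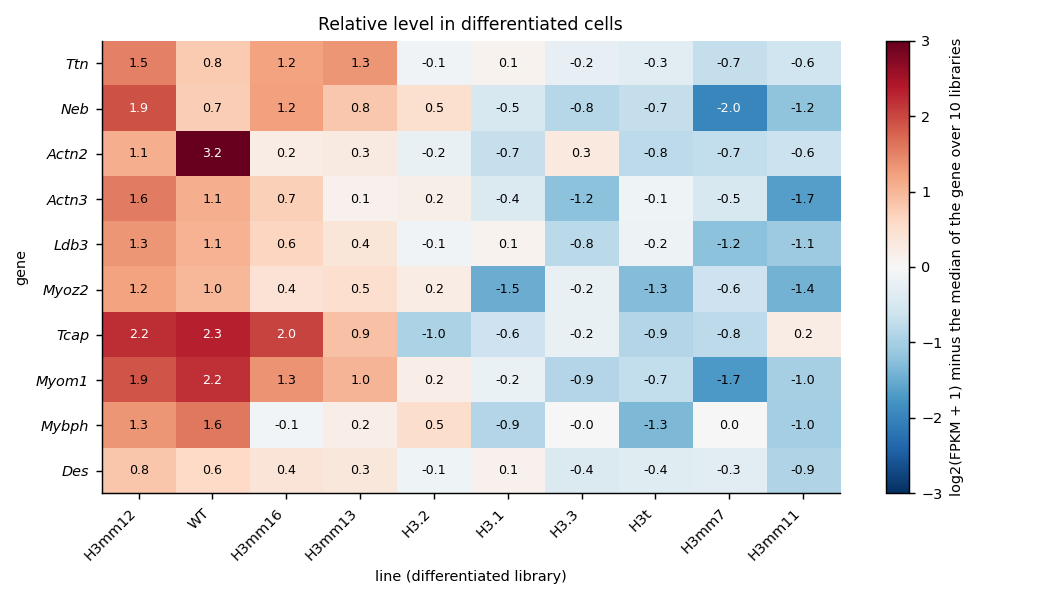
Level of each scaffold gene (rows) in each differentiated library (columns, by mean rank) as the difference in log2(FPKM + 1) from the gene's median over the 10 libraries, printed in each cell and shown as colour. H3mm12, WT and H3mm13 lie above the median for all 10 genes, and H3t lies below it for all 10.

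The genes differed in how far the lines spread. From the lowest to the highest differentiated library, Des spanned 3.37-fold, Ttn 5.91-fold, Ldb3 6.18-fold, Myoz2 6.76-fold, Mybph 7.63-fold and Actn3 9.50-fold. Neb and Myom1 spanned 20.8-fold and 21.7-fold, and Actn2 and Tcap, the lowest 2 of the order, 91.7-fold and 97.4-fold. In growing cells, Ldb3 spanned 2.20-fold, Des 3.003-fold and Actn3 14.6-fold. Without WT, the span of Actn2 in differentiated cells was 17.6-fold and that of Tcap 88.8-fold. The sum of the 10 genes ran from 593 FPKM (H3mm11) to 2569 FPKM (H3mm12) in differentiated cells, with 2383 FPKM in WT, and from 178 to 531 FPKM in growing cells.

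Across the 10 differentiated libraries, the 45 pairs of scaffold genes had a median Pearson's r of 0.787 on log2(FPKM + 1), from 0.574 to 0.956, with 10 pairs above 0.9, and a median Spearman's rho of 0.745. Without WT the median r was 0.796. The points share their libraries, so these values describe the 10 libraries and carry no test. Myom1 followed the other genes most closely (mean r of 0.860), and Actn2 (0.699) and Mybph (0.711) least.

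Some markers of muscle cells were high in the same lines and others were not. Ckm, muscle creatine kinase, was at 607 FPKM in H3mm12, 541 in H3mm16, 527 in H3mm13 and 401 in WT, and at 94.9 to 257 FPKM in the other 6 differentiated libraries. Myh3, embryonic myosin heavy chain, was at 1060 FPKM in WT and 712 in H3mm12, and was lowest in H3mm7, at 54.9 FPKM. Myog ran from 329 (H3t) to 1151 FPKM (H3mm12) and Myod1 from 25.9 (H3mm11) to 107 FPKM (H3mm12). Cdh15, M-cadherin, was highest in H3.1, at 240.3 FPKM, and was at 119 FPKM in H3mm16 and 141 in H3mm13. Myf5 was lowest in WT and H3mm12, at 17.5 and 19.9 FPKM, and highest in H3mm7, at 95.9 FPKM. The sum of the 6 muscle markers ran from 95.6 to 252 FPKM in growing cells and from 697 (H3mm11) to 2810 FPKM (H3mm12) in differentiated cells. Their part in the spread of the scaffold genes was not tested.

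Markers of other cells were also read. Of 4 smooth muscle markers, 3 of them tested, Acta2, which skeletal muscle cells also express as they differentiate, rose, Cnn1 fell and Myh11 was at most 0.379 FPKM in any library. The sum of the 4 was 448 to 1235 FPKM in growing and 729 (H3.3) to 3107 FPKM (H3mm12) in differentiated cells, nearly all of it Acta2. The 5 cardiac markers, relevant to Actn2 and Tcap, which heart muscle also expresses, summed to 7.70 to 35.9 FPKM in growing cells and to 5.23 (WT) to 23.6 FPKM (H3mm7) in differentiated cells, with Nppa at most 0.412 and Ryr2 at most 0.0694 FPKM in any library. Only 2 of the 5 passed the filter, of which Nppb fell and Nkx2-5 was not called. These 2 made up most of the sum. Nkx2-5 was at 2.58 to 32.6 FPKM in growing and 2.01 to 15.5 FPKM in differentiated cells. Nppb was at 3.13 to 15.6 and 0.551 to 7.66 FPKM. Myh6, which was not tested, was at 0.0730 to 2.48 FPKM in differentiated cells, highest in WT, where Actn2 was highest, and at most 0.0418 FPKM in growing cells. Adipocyte markers summed to at most 34.9 FPKM and bone and cartilage markers to at most 20.5 FPKM, with 2 of 4 and 1 of 5 tested and none of these called, and Plin1 was listed at 0 in most libraries. Most of the adipocyte sum was Pparg, at 14.4 to 29.8 FPKM in growing and 6.77 to 17.5 FPKM in differentiated cells. Most of the bone and cartilage sum was Sox9, at 8.16 to 10.5 and 7.21 to 20.5 FPKM.

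Ratios within a library do not depend on its overall level. Actn3 exceeded Actn2 in all 10 differentiated libraries, from 10.7-fold in WT and 24.5-fold in H3.3 to 425-fold in H3t, with a median of 95.1-fold. The ratio of Neb to Ttn ran from 0.763 (H3mm7) to 3.34 (H3.2), with a median of 1.50. Tcap to Ttn ran from 0.0204 (H3.2) to 0.968 (WT), with a median of 0.189. The largest ratio of Actn3 to Actn2 rested on 0.192 FPKM of Actn2 in H3t. The smallest ratio of Tcap to Ttn rested on 0.0994 FPKM of Tcap in H3.2. Values this near 0 have no known error, and neither do ratios built on them. WT also had the highest ratios of Myom1 to Ttn (4.71, median 1.37), of Actn2 to Ttn (1.76, median 0.101) and of Mybph to Des (0.771, median 0.428), and the lowest ratio of Neb to Myom1 (0.419, median 1.06). Myoz2 to Ldb3 had a median of 1.01 and ran from 0.347 to 1.69.

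**Figure D4:**
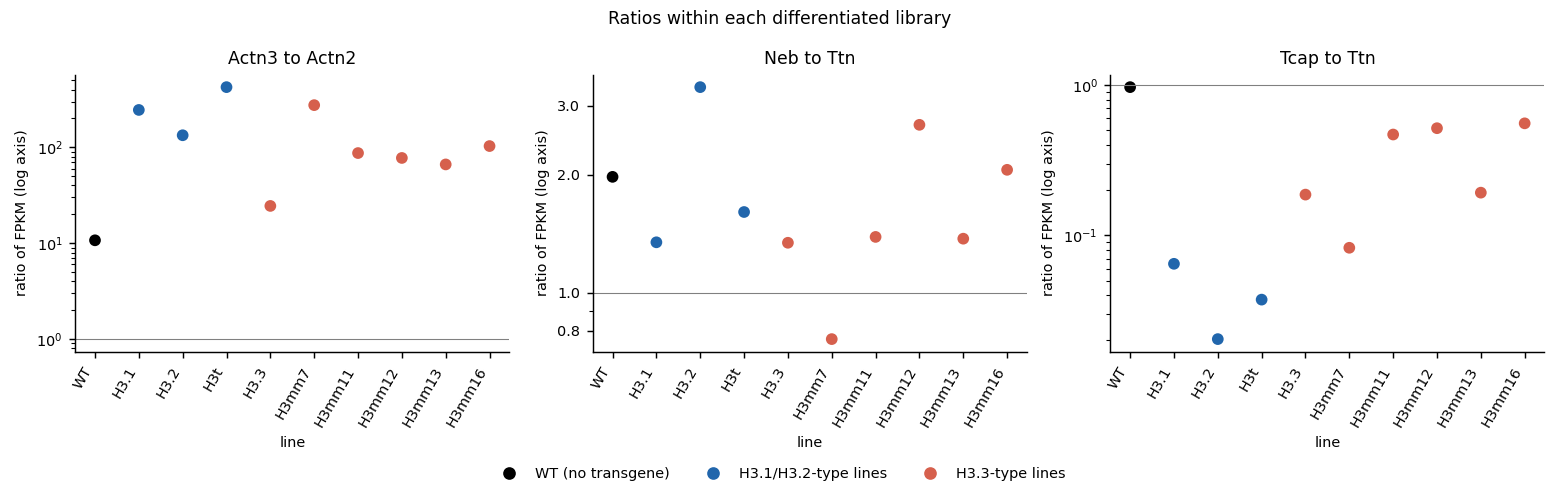
Ratios of FPKM within each differentiated library for Actn3 to Actn2, Neb to Ttn and Tcap to Ttn, on log axes, with 1 point per line coloured by the type of its H3 transgene. WT has the lowest ratio of Actn3 to Actn2 (10.7) and the highest of Tcap to Ttn (0.968).

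The GFP-H3 lines were then compared by the type of their transgene, with 6 H3.3-type and 3 H3.1/H3.2-type lines and WT left out. For each gene, the fit shared its estimate of spread between both states, so the SE of either state rests on both. In differentiated cells, 0 of the 10 scaffold genes were called by limma, where 0.219% of all genes tested were called higher in H3.3-type lines and 0.529% lower. At an unadjusted p below 0.05, 2 of the 10, Tcap and Actn2, differed, against 20.1% of all genes tested. Tcap was at 0.239, 2.18 and 8.83 FPKM (lowest, median and highest) in the H3.3-type lines and at 0.0994, 0.152 and 0.380 FPKM in the H3.1/H3.2-type lines, and the types overlapped through H3mm7. The SD of log2(FPKM + 1) for Tcap was 1.21 in differentiated H3.3-type lines and 0.17 in differentiated H3.1/H3.2-type lines. Over the 10 growing lines, with WT, it was 0.13. The difference of Tcap between types was 1.54 ± 0.47 (SE, pooled over both states), with 0.60 to 2.48 as the range of 2 SE to either side (limma, adjusted p = 0.0811). Without the H3mm7 line it was 1.84 and was called (adjusted p = 0.0311, the lowest of the alternatives, which reached 0.37 with the differentiated libraries alone). Actn2 was at 0.232, 1.44 and 3.38 FPKM in the H3.3-type lines and at 0.192, 0.265 and 0.746 FPKM in the H3.1/H3.2-type lines, a difference of 0.66 ± 0.29 (adjusted p = 0.206).

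The other 8 genes gave differences between -0.08 (Ldb3) and 0.84 (Myoz2) in differentiated cells. For Ldb3 the range of 2 SE to either side was -0.92 to 0.76, for Actn3 -1.12 to 1.07, for Des -0.50 to 0.72 and for Neb -0.98 to 1.44, so the types were not shown to act alike on these genes. The sign of the difference turned under an alternative for Ldb3, Actn3, Des, Neb and Myom1. None of the 10 genes had types that did not overlap in differentiated cells, where 3.13% of all genes had every H3.3-type library above every H3.1/H3.2-type library and 2.94% the opposite.

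In growing cells, 0 of the 10 genes were called by limma (background 0.164% higher and 0.0456% lower), and 1, Actn3, had an unadjusted p below 0.05, against 9.39% of all genes tested. In 4 of the 10 genes, Ttn, Neb, Actn3 and Des, every H3.3-type library lay above every H3.1/H3.2-type library, as in 5.93% of all genes tested, while the opposite order held in none of the 10 and in 4.01% of all genes. Actn3 was at 3.99 to 16.8 FPKM in growing H3.3-type lines and at 1.15 to 2.80 FPKM in H3.1/H3.2-type lines (WT 3.86 FPKM), a difference of 1.41 ± 0.55 (SE; limma, adjusted p = 0.397). Des was at 233 to 497 FPKM and at 165 to 223 FPKM (WT 288 FPKM), a difference of 0.63 ± 0.31 (adjusted p = 0.535). Ttn (0.109 to 0.684 against 0.0162 to 0.0516 FPKM, WT 0.0529 FPKM) and Neb (0.0484 to 0.139 against 0.0218 to 0.0471 FPKM, WT 0.0177 FPKM) lay near 0 in both types. Myog, which differed among growing lines too, was lowest in H3.1, at 0.106 FPKM, and highest in H3mm7, at 23.1 FPKM, and its part in these values was not tested.

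The types were not shown to respond differently to differentiation in any of the 10 genes. By the interaction term of limma 0 of the 10 were called, as were 0 of all 10954 genes tested, and 1, Tcap, had an unadjusted p below 0.05, against 9.15% of all genes. The rise of Tcap was 1.43 ± 0.67 (SE) larger in the H3.3-type lines (adjusted p = 0.54), and that of Actn3 was lower there, with a difference of -1.43 ± 0.78 (adjusted p = 0.612).

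**Figure D5:**
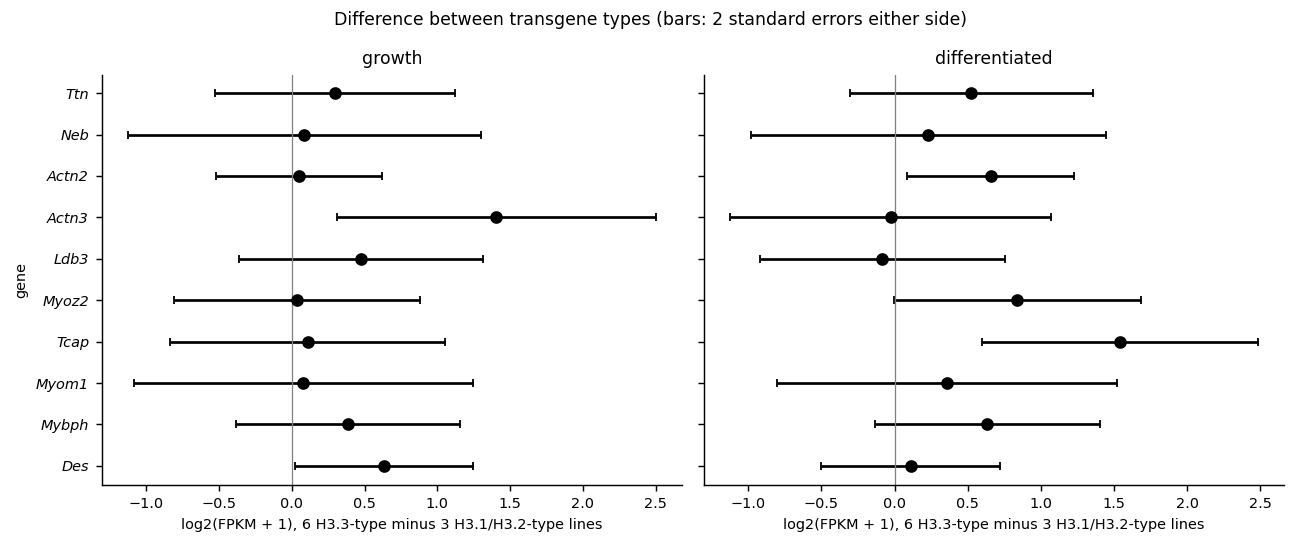
Difference between 6 H3.3-type and 3 H3.1/H3.2-type lines in log2(FPKM + 1) for each scaffold gene, in growing (left) and differentiated cells (right), with bars of 2 standard errors to either side. The standard errors rest on a spread pooled over both states. Actn3 has the largest difference in growing cells (1.41) and Tcap in differentiated cells (1.54), and neither was called.

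Further parts of the sarcomere scaffold were described through 50 other genes in 6 lists, of which 40 passed the filter on low values. Of these, 26 were called higher in differentiated cells, 2 were called lower and 12 were not called (all genes tested, 8.87% higher and 8.41% lower). Their median difference was 1.81. In growing cells, 21 of the 40 had a mean of at least 1 FPKM. The rest passed the filter through their differentiated libraries, so they had to differ to be tested, and the 26 rests in part on the filter. Smpx, Csrp3, Ankrd2, Klhl41, Lmod2 and Unc45b, named below, were among that rest. Among 13 other Z-disc genes tested, 8 were called higher and none lower, led by Smpx, the small muscle protein (4.93 ± 0.33 SE, adjusted p = 4.97e-11), and Csrp3, the muscle LIM protein (4.06 ± 0.29, adjusted p = 1.24e-10). Bag3, a co-chaperone (-0.04), and Palld, palladin (-0.37), were not called. Of 12 M-band, thick filament and titin-binding genes, 10 were called higher, led by Myom2, another myomesin (4.66 ± 0.27, adjusted p = 7.67e-12), and Ankrd2, a titin-binding ankyrin repeat protein (4.62 ± 0.23, adjusted p = 9.42e-13). Ankrd1, its relative, stood at medians of 387 FPKM in growing and 454 FPKM in differentiated cells (0.24, not called), and Obsl1, the obscurin-like cytoskeletal adaptor, gave 0.92.

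Of 7 genes of the nebulin family and of thin filament length, 5 were called higher (8.87% of all genes tested), led by Klhl41 (5.06 ± 0.48, adjusted p = 1.24e-08) and Lmod2, leiomodin-2, which elongates thin filaments (4.36 ± 0.36, adjusted p = 1.52e-09). All 5 had growing medians of at most 0.362 FPKM and passed the filter through their differentiated libraries, so they had to differ to be tested. Lasp1, a member of the nebulin family with a place in non-muscle actin structures, was called lower (-1.63 ± 0.20, adjusted p = 5.07e-07), in 10 of 10 lines, and Lmod1 was not called (0.84). Both assembly factors rose, the myosin chaperone Unc45b (4.22 ± 0.36, adjusted p = 2.75e-09) and the methyltransferase Smyd1 (3.96 ± 0.30, adjusted p = 2.87e-10). Of 4 other intermediate filament genes, Sync, syncoilin, rose (1.95 ± 0.20, adjusted p = 2.67e-08), Vim, vimentin, fell (-1.16 ± 0.18, adjusted p = 1.13e-05), from a median of 4339 to 2031 FPKM, and Nes, nestin (0.11), and Plec, plectin (-0.27), were not called. The non-muscle alpha-actinins were lower in 10 of 10 lines but did not reach a difference of 1, with -0.90 ± 0.14 for Actn1 (adjusted p = 1.37e-05) and -0.64 ± 0.11 for Actn4 (adjusted p = 3.78e-05).

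The genes outside all lists whose levels over the 10 differentiated libraries were most like the mean of the 10 scaffold genes were Tpm2 (Pearson's r = 0.983), Ppp1r12b (0.978), Hrc (0.977), Ehbp1l1 (0.975) and Plekha7 (0.975). For single genes, the most alike were Egr2 for Ttn (r = 0.966), Sh3pxd2a for Neb (0.968), Pgm5 for Actn2 (0.977), Cox6b1 for Actn3 (0.978), Rab12 for Ldb3 (0.993), Mylpf for Myoz2 (0.979), Ei24 for Tcap (0.959), Stac3 for Myom1 (0.983), Tmem8c for Mybph (0.979) and Alyref2 for Des (0.975). They were picked as the highest of the correlations of all 10954 genes tested over 10 libraries, and no p is given for them. Pgm5 had its highest level, 14.9 FPKM, against a median of 1.06 FPKM, a range much like that of Actn2.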

How the data were processed

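Total RNA of growing and differentiated C2C12 cells (WT and 9 GFP-H3 lines) was reverse transcribed, with an oligo dT primer per the labels, and sequenced. Reads were mapped by the authors with TopHat2 2.0.8 (mm9), who deposited FPKM values made by cuffdiff of Cufflinks 2.0.1 with default settings. The paper names this mapping for the GFP-H3 lines, and the submitters' processing notes list the same tools for WT. Read depth is unknown. All 20 value columns were used. The 3′-seq tables list histone genes and were not used here, nor was ChIP-seq.

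Members and lists were chosen with earlier results of these data known. Groups followed the labels. Genes with a mean of at least 1 FPKM over the 20 libraries (10954) were tested on log2(FPKM + 1) with limma 3.58.1 (trend and robust settings, R 4.3.3), in 10 growing against 10 differentiated libraries without a block and in 18 GFP-H3 libraries by state and type, with Benjamini-Hochberg adjustment over all genes tested. A gene was called when its adjusted p was below 0.05 and its difference reached 1. The fits were tested on simulated data. Neighbouring levels were compared by exact sign-flip permutation tests. The libraries of both states were paired by the line named in their titles. The deviations of growing and differentiated cells from their group means correlated within each line (r = 0.273 to 0.475 in GFP-H3 lines, 0.877 in WT), so the line was fitted as a block as an alternative. Named from each list were the 2 largest called rises, the 2 largest called falls and the 2 smallest differences not called, with the most correlated genes among those tested, all markers and the 10 scaffold genes. Alternatives covered the pseudocount, the filter, normalization between libraries, the limma settings, the block and leaving out each line. Python 3.11.15, numpy 2.4.6, pandas 2.3.3 and matplotlib 3.10.9 were used.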

Additional observations from a re-analysis of the deposited data

Results flagged for a closer look

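In 2 of the 20 groups of 10 libraries (10 genes in 2 states), the highest library lay farther from the next than Dixon's 95% critical value allows as a share of the group's range on the log2(FPKM + 1) scale, and chance flags about 1 in 20 groups. In differentiated cells, Actn2 was at 17.6 FPKM in WT and at 3.38 FPKM in the next library (share 0.526). In growing cells, Tcap was at 0.316 FPKM in H3mm7 and at 0.154 FPKM in the next library (share 0.480), both near 0.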

How the results depend on the processing

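FPKM carries no read numbers, so levels near 0 in growing cells have no known error. Under the alternatives, 671 values of single genes kept their direction and side of the threshold, 2 lost and 1 gained a call, and 34, none of them called, changed sign, all in comparisons of types. Leaving out the WT line and leaving out both WT libraries were the same fit, entered under both names, so its values are counted under each. In that fit the difference of Actn2 was 0.84, and 9 of the 10 genes were called higher. Both lost calls are this 1 result. Without H3mm7, 1 gene, Tcap, was called between types in differentiated cells, against 0 otherwise. Leaving out each line gave 9 to 10 genes called higher after differentiation, 0 to 1 between types in differentiated cells, 0 to 0 in growing cells and in the interaction, 6 to 7 and 3 to 3 neighbouring levels that differed in differentiated and growing cells, and 25 to 28 pathway genes called higher. With a mean of at least 5 FPKM, 7 of 7 members tested were called. The line as a replicate block changed no call of the 10 genes (10 called higher).

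The pseudocount moved the differences of genes near 0 by more than 1.5 times: over all alternatives Actn2 ran from 0.84 to 4.71, Tcap from 1.19 to 4.50, Ttn from 2.61 to 5.72, Neb from 3.33 to 7.31, Myom1 from 3.25 to 6.82 and Myoz2 from 5.19 to 9.56. Counts over all genes varied more than those of the members. Between types in differentiated cells, 24 higher and 58 lower became 35 and 99 with a pseudocount of 0.1, 14 and 25 without a filter, 10 and 39 with at least 5 FPKM, 0 and 1 with the differentiated libraries alone, and 1 to 107 and 2 to 188 when a line was left out (1 and 2 without H3.1, 107 and 188 without H3.2). In growing cells, 18 and 5 became 45 and 1 (pseudocount 0.1), 69 and 1 (0.01), 8 and 6 (no filter) and 54 and 5 (growing libraries alone). In the interaction, 0 and 0 became 14 and 41 with the line as a block. The cause was not tested.

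The changes of sign were these. Under quantile normalization, the difference between types was -0.15 for Des in differentiated cells, and -0.0707 for Actn2, -0.0716 for Myom1, -0.0820 for Myoz2 and -0.0279 for Neb in growing cells. In the interaction, a pseudocount of 0.1 gave -0.77 for Mybph, -0.13 for Myom1, -0.37 for Neb and -0.81 for Ttn, and 0.01 gave -1.44, -0.61, -1.11 and -1.97. Leaving out each line gave -0.37 to 0.27 for Actn3, -0.0632 to 0.29 for Des, -0.38 to 0.14 for Ldb3, -0.00057 to 0.72 for Myom1 and -0.15 to 0.62 for Neb between types in differentiated cells, -0.0012 to 0.0705 for Myoz2 in growing cells, and -0.17 to 0.82 for Mybph, -0.0791 to 0.66 for Myom1 and -0.23 to 0.54 for Neb in the interaction.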
